A study of Homo sapiens with 2 samples.

Results

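The last 628 nts of the modeled DRAIC RNA, which lie 3′ of the probed region and carried no SHAPE data, were examined through their modeled base pairs. DRAIC is a long noncoding RNA that represses NF-κB signaling through the IKK complex, and the model was made from the RNA of LNCaP cells, a human prostate cancer cell line. Pairs were chosen by position only, with both nts in this unprobed 3′ stretch and with no minimum probability. This gave 1140 of the 3469 pairs listed over the whole modeled RNA. The other listed pairs lie within the unprobed 5′ part (1500 pairs), within the 431 probed nts (302 pairs) or between different parts (527 pairs).

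Total RNA was freed of protein, refolded for 20 min at 37 °C and incubated for 10 min at 37 °C with the SHAPE reagent 5NIA, at 25 mM by the sample labels, or with its solvent DMSO. The study's methods give a higher 5NIA concentration than the labels. There was 1 library per condition, and both were read into 1 model, so no value here has a replicate error and no test was made. The reactivities of the probed nts entered the model as restraints, and the pairing of the 3′ stretch was computed with no reactivity of its own. The SHAPE profile itself and the read depth are not analysed here.

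RNA strands fold back on themselves when complementary stretches form helices of G-C, A-U and G-U pairs, and the loops between helices stay single stranded. A partition function weighs all the secondary structures that a sequence can take by their computed free energies, so a pair has a probability between 0 and 1 rather than being present or absent. The probability of a pair is its share of the modeled structures, not a measured occupancy in cells. Restraints from SHAPE lower the weight of structures that pair reactive nts, and a part without restraints rests on the sequence and on what is left over by its neighbours.

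The stretch lies in exon 5 of transcript DRAIC-244, on the plus strand of chromosome 15 from 69570813 to 69571440 (GRCh38), and is continuous in the genome. DRAIC is annotated as a lncRNA gene, so the stretch has no coding or untranslated part. GENCODE release 44 annotates 74 transcripts of the gene. An exon touches the stretch in 48 of them and covers all of it in 11, and 4 end at its last nt. DRAIC-244 itself runs 152 nts further. G and C made up 43.6% of the stretch, against 40.8% of the probed nts and 49.4% of the 5′ part.

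Hairpins that lie outside the larger structures, and the hairpin at nt 1469 with the highest probabilities, are shown first, 5′ to 3′, since the values below turn on them. Capitals mark the bases of the named helix and lower case marks all others. A helix was a run of at least 3 nested pairs, each with a probability above 0.5, with at most 4 other nts on both strands together between successive pairs. Nts 1232 to 1249, 1255 to 1267 and 1274 to 1283 form short hairpins near the 5′ end of the stretch, nts 1469 to 1488 form a hairpin inside the second of the larger structures, and nts 1687 to 1709 form the last hairpin before the 3′ end.
hairpin 1157: GaGUCUuugggcgcagaAGACcC
hairpin 1232: AUAGGAcuaaauUCCUAU
hairpin 1255: AUCCacucaGGAU
hairpin 1274: CCCcuuuGGG
hairpin 1469: CCCACCauacuacgGGUGGG
hairpin 1687: GGAcUUGccagccacaCAAuUCC

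Larger structures enclose several helices. They are shown whole, with capitals for every base that has a pair above 0.5 within the stretch. The first spans nts 1296 to 1419 (chr15:69571001-69571124, GRCh38, plus strand) and the second nts 1450 to 1685 (chr15:69571155-69571390).
domain 1296: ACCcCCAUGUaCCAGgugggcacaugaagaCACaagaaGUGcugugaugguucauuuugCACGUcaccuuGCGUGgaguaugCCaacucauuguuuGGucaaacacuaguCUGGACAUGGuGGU
domain 1450: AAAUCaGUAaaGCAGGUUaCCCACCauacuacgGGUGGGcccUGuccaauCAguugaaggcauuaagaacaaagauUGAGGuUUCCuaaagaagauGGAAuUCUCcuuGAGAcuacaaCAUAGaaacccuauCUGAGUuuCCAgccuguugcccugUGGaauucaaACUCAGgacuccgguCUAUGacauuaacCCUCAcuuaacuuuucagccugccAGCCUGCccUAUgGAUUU

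Most pairs of the stretch were improbable. Their probabilities ran from 0.00148, for nts 1144 and 1153, to 0.992, for nts 1471 and 1486, with a median of 0.0352. The median was 0.0478 over the pairs within the probed nts and 0.0291 over those within the 5′ part. Of the 1140 pairs, 239 were at or below 0.01 and another 586 were between 0.01 and 0.1. These 2 groups hold most of the listed pairs but 0.831% and 15.6% of the summed probability.

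A probability above 0.5 was reached by 97 pairs of the stretch, or 8.51%, against 9.25% of all listed pairs. Above 0.75 there were 37 pairs (3.25%, against 5.07% of all listed pairs), and above 0.80 there were 17 (1.49%, against 4.15%). Above 0.95 there were 6, or 0.526%, against 1.93% of all listed pairs, 14.2% of the pairs within the probed nts and 12 of the 1500 pairs within the 5′ part. The share of the stretch was thus close to that of the whole list at 0.5 and lower at each of the higher thresholds. The 5′ part was also below the whole list, at 7.07% above 0.5, 4.13% above 0.75, 3.67% above 0.80 and 0.8% above 0.95. Just above 0.5 lay the pair 1492-1501 (0.501), and just below it lay 1589-1609 (0.497).

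The same held per nucleotide. The highest pairing probability of a nt, with any partner in the RNA, had a median of 0.360 in the stretch, 0.396 in the probed part and 0.366 in the 5′ part. It was above 0.5 for 223 of the 628 nts (35.5%), against 194 of the 431 probed nts and 33.3% of the 5′ part. Above 0.80 the shares were 6.85% in the stretch, 29.7% in the probed part and 17.3% in the 5′ part. Above 0.95 they were 1.91%, 21.3% and 4.44%. At 0.80 and 0.95 the stretch therefore had the lowest share of the 3 parts, the other unprobed part included. The nts of 1 model are not independent of each other, so these differences were not tested.

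**Figure D1:**
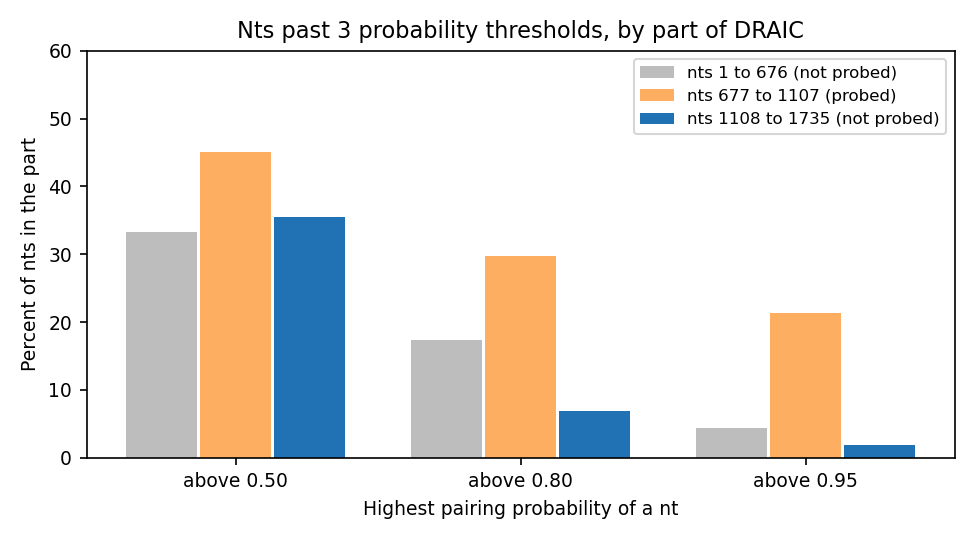
Percent of nts (vertical axis) whose highest pairing probability exceeds 0.50, 0.80 or 0.95 (horizontal axis), for the unprobed 5′ part (grey), the probed nts (orange) and the unprobed 3′ stretch (blue); 1 model, so no error bars. Above 0.50 the 3′ stretch (35.5%) lies between the other parts, and above 0.80 (6.85%) and 0.95 (1.91%) it is the lowest.

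The pairing entropy of a nt, the sum of −p log10 p over its listed pairs, is 0 for a nt with a single certain partner or with none and grows as partners compete. Its median was 0.260 in the stretch, 0.2497 in the 5′ part and 0.0707 in the probed part. Each nt of the stretch had a summed probability of 0.520 on average, against 0.528 in the probed part and 0.565 in the 5′ part. By this mean the stretch was paired about as much as the probed nts. The entropy does not by itself show over how many partners that pairing was divided, since a nt with no partner also scores 0. No pair was listed for 72 of the 431 probed nts and for 23 of the 628 nts of the stretch. A median without such nts was taken for the stretch only (0.269). Listed pairs with both nts in the same part numbered 1.82 per nt in the stretch, 2.22 in the 5′ part and 0.701 in the probed part. These counts leave out the 527 pairs between different parts, of which 264 join the stretch to the probed nts. They therefore understate the partners of the probed nts in particular. At 9 nts of the stretch the listed probabilities summed to more than 1, with a largest sum of 1.18, so at those nts they are not exact shares. Such sums also occurred at 12 nts of the probed part and at 12 nts of the 5′ part. The listed values need therefore not be exact shares at other nts either.

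By summed probability, 88.3% of the pairing of the stretch stayed within it. The other 11.7% was with the probed nts, through 264 listed pairs of which 29 were above 0.5, and no pair with the 5′ part was listed (a count of 0). The longest pair in the whole list had 591 nts between partners, and 467 of the 628 nts of the stretch lie farther than that from any nt of the 5′ part. The largest distance allowed in the model is not given in the sources used here, and a limit of this kind would by itself keep such pairs out of the list and raise the share within the stretch. The highest of the pairs that leave the stretch joined nts 883 and 1287 (0.889), and nt 1287 is the nt with the largest sum, 1.18. Pairing with the probed nts was unevenly spread. It made up 90.4% of the pairing of the first 25 nts, which the amplicon covers but the probing does not. From there to nt 1249 it made up 26.9%, from nt 1250 to nt 1449 it was 9.47%, and from nt 1450 on it was 0.0258%. No pair within the stretch above 0.5 used the first 25 nts. At the edge itself, the first nt of the stretch had 4 listed partners within the stretch, between 0.00675 (nt 1148) and 0.0399 (nt 1115), and its pair with nt 1008 in the probed part was at 0.260. On the other side of the edge, the last probed nt had its only listed partner in the stretch at nt 1153 (0.0306).

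**Figure D2:**
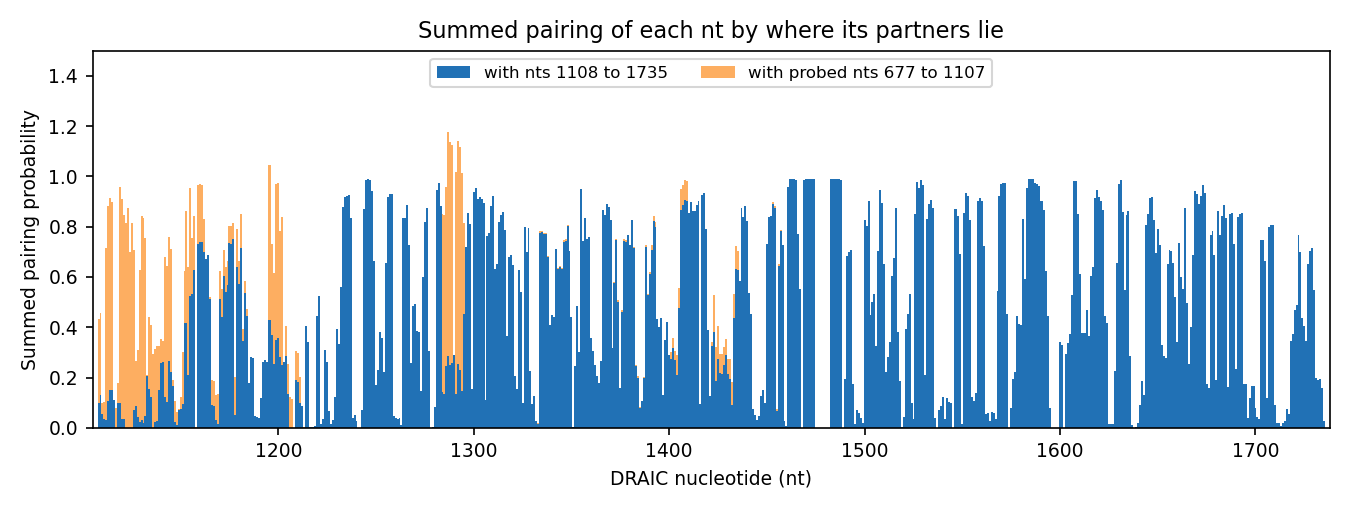
Summed pairing probability (vertical axis) of each nt of the stretch (horizontal axis), in blue for partners within the stretch and in orange for partners among the probed nts. Orange dominates the first 25 nts and is again the larger part near nts 1142, 1195 and 1287, and the nts from 1450 on are blue almost throughout.

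The pairs above 0.5 formed 16 helices with 93 pairs. Only 4 pairs above 0.5 lay outside them, as the adjacent pairs 1378-1393 (0.603) and 1379-1392 (0.604), and 1492-1501 (0.501) and 1493-1500 (0.512). The 93 helix pairs had probabilities from 0.514 to 0.992 with a median of 0.715, and they held 45.8% of the summed probability of the 1140 pairs. For 11 of the helices nothing else above 0.5 lay between the strands, which makes them hairpin ends at this threshold. Weaker pairs can still lie there. Inside the helix at nts 1157 to 1179, a run of 3 pairs joined nts 1163 to 1165 with nts 1170 to 1172 at a median of 0.380.

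**Figure D3:**
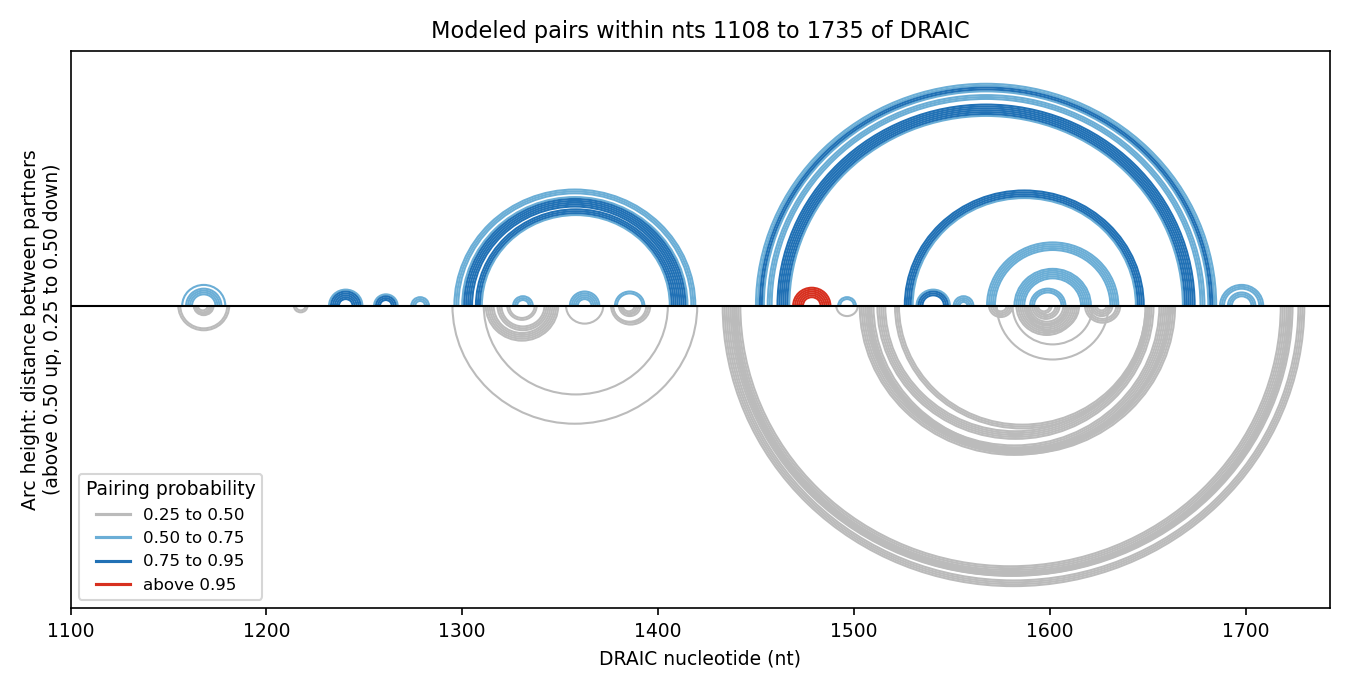
Pairs within the 3′ stretch drawn as arcs between their nts (horizontal axis), with a height in proportion to the distance between partners; pairs above 0.50 are drawn upward, coloured by probability, and pairs between 0.25 and 0.50 downward in grey. The only arcs above 0.95 are the 6 pairs of the hairpin at nt 1469, which sits inside the long helix that starts at nt 1450.

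The hairpin at nts 1469 to 1488 (chr15:69571174-69571193, GRCh38, plus strand) held all 6 pairs above 0.95. Its pairs had probabilities from 0.987 to 0.992 with a median of 0.991, and 5 of the 6 were G-C pairs. The strands CCCACC and GGUGGG close a loop of 8 nts, auacuacg, and no nt of the helix or of its loop had any other listed partner or, in the loop, any listed partner at all. It was the only helix of the 16 whose nts had no competing pair in the list.

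A long helix enclosed it. This helix joined nts 1450 to 1467 with nts 1668 to 1685 across 200 nts, with 15 pairs from 0.542 to 0.776 and a median of 0.751. Its strands are AAAUCaGUAaaGCAGGUU and AGCCUGCccUAUgGAUUU, with 8 A-U, 5 G-C and 2 G-U pairs and 2 interruptions of 6 nts in all. The most probable stretch was the run of G-C, C-G and A-U pairs from 1461-1674 (0.775) to 1465-1670 (0.776). The main competitor of these same nts was local, since nt 1463 paired with nt 1492 at 0.196, beside the hairpin at nt 1469. Together the nts 1450 to 1685 held 8 of the 16 helices and 50 of the 97 pairs above 0.5, and 98.0% of their pairing stayed between them.

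Within that structure, 5 pairs between nts 1526 to 1530 and 1644 to 1648 (UGAGG with CCUCA) closed a smaller unit of 123 nts. Their probabilities were from 0.743 to 0.882 with a median of 0.817. By summed probability 99.9% of the pairing of nts 1526 to 1648 stayed among them. Beside this helix came 2 small hairpins. The first, UUCCuaaagaagauGGAA at nts 1532 to 1549, had 4 pairs from 0.690 to 0.836 with a median of 0.822. The second, UCUCcuuGAGA at nts 1551 to 1561, had 4 pairs around a loop of 3 nts with a median of 0.735.

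The rest of the 123-nt unit had competing pairings. In the more probable, nts 1568 to 1572 (CAUAG) paired with nts 1631 to 1635 (CUAUG) at a median of 0.548, and these 5 pairs enclosed 6 pairs between nts 1582 to 1587 and 1616 to 1621 (CUGAGU with ACUCAG, median 0.607) and 3 pairs between nts 1590 to 1592 and 1606 to 1608 (CCA with UGG, median 0.556). The same nts also entered 3 hairpins below 0.5. Their sequences follow, with the bases of these competing pairs in capitals.
competitor 1569: AUAGaaaccCUAU
competitor 1583: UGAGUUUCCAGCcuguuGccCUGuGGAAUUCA
competitor 1618: UCAGGACuccgGUCUaUGA

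The hairpin at nts 1569 to 1581 had 4 pairs with a median of 0.412. That at nts 1583 to 1614 had 12 pairs with a median of 0.348, and that at nts 1618 to 1636 had 7 pairs with a median of 0.308. Nt 1571 shows the division, with its partner at nt 1632 at 0.548 and at nt 1579 at 0.415. Nt 1584 likewise had nt 1619 at 0.610 and nt 1613 at 0.379. Runs of at least 3 pairs above 0.25 and up to 0.5 numbered 12 in the whole stretch, and these 3 were the only ones that shared nts with a helix above 0.5. This lower class was set after the values were seen.

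The other large structure, nts 1296 to 1419, was closed by 13 pairs between ACCcCCAUGUaCCAG (nts 1296 to 1310) and CUGGACAUGGuGGU (nts 1406 to 1419). Their probabilities ran from 0.628 to 0.762 with a median of 0.754, and 8 were G-C pairs and 5 A-U. Inside it were the hairpins CACaagaaGUG at nts 1326 to 1336, with 3 pairs and a median of 0.541, and CACGUcaccuuGCGUG at nts 1355 to 1370, with 5 pairs and a median of 0.653. Below 0.5, a run of 8 pairs joined nts 1312 to 1320 with nts 1342 to 1349 at a median of 0.465 and lay between the closing helix and the hairpin at nt 1326. Of the pairing of nts 1296 to 1419, 93.3% stayed among them. The nts next to this structure on the 5′ side include nt 1287, the partner of nt 883.

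The hairpins upstream of nt 1296 were local. That at nts 1232 to 1249 (chr15:69570937-69570954) had 6 pairs from 0.546 to 0.911 and a median of 0.886, second to the hairpin at nt 1469, although 4 of its 6 pairs were A-U. That at nts 1255 to 1267 had 4 pairs with a median of 0.776. That at nts 1274 to 1283 had 3 G-C pairs with a median of 0.560, and its strands CCC and GGG could also slide by 1 nt, as nt 1282 with nt 1276 (0.213). The most 5′ helix, at nts 1157 to 1179 (chr15:69570862-69570884), had 5 pairs from 0.534 to 0.668 with a median of 0.663. Its main competitor left the stretch, since nt 1159 paired with nt 959 in the probed part at 0.229.

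The last helix, at nts 1687 to 1709 (chr15:69571392-69571414), had 6 pairs from 0.618 to 0.692 with a median of 0.677 around a loop of 9 nts. A reporter fragment built in the study stops 30 nts before the end of the modeled RNA. It contains the other 15 helices but cuts this one, because its 3′ strand runs to nt 1709. Of the 1140 pairs, 124 have a nt past the end of that fragment. Annotated transcripts also differ in what they hold. Both strands of the helix at nt 1157 lie in exons of 48 of the 74 DRAIC transcripts, those of the helix at nt 1296 in 32, those of the helix at nt 1450 in 30 and those of the helix at nt 1687 in 29.

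Distances between partners varied widely. The 97 pairs above 0.5 had a median of 17 nts between partners, with a range from 3 to 234. Of these, 54 had fewer than 30 nts between partners, 67 fewer than 100 and 82 fewer than 200. Over all 1140 pairs the median was 46 nts and the largest distance 564 nts. The median for pairs above 0.5 depended on the model, at 32 nts with the whole RNA folded without restraints and 41 nts with the stretch folded alone.

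Strong pairs were richer in G-C and poorer in G-U. Of the 97 pairs above 0.5, 53 were G-C (54.6%), 41 A-U (42.3%) and 3 G-U (3.09%). Among the 1043 pairs at or below 0.5 the percentages were 39.0%, 46.5% and 14.5%. Over all listed pairs above 0.5 in the RNA they were 51.1%, 41.1% and 7.79%. As background, a G-C pair has more hydrogen bonds than the others, and the energy rules behind a partition function give it more weight.

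Weakly paired nts were rich in A. The summed probability was below 0.05 at 77 nts of the stretch (12.3%), against 25.8% of the probed nts and 11.1% of the 5′ part. Of these 77 nts, 41 were A (53.2%), 18 U, 16 C and 2 G, while A made up 30.1% of the stretch. By base, 21.7% of the A, 11.3% of the C, 10.9% of the U and 2 of the 133 G fell below 0.05. G had the highest median summed probability, at 0.843, followed by C (0.554), U (0.508) and A (0.314). The longest runs below 0.10 had 8 nts each, and the loop auacuacg of the hairpin at nt 1469 was one of them.

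Among the 589 windows of 40 nts in the stretch, that with the lowest mean summed probability was nts 1204 to 1243 (0.259), of which 60% were A. The window with the highest was nts 1281 to 1320 (0.819), which begins in the hairpin at nt 1274 and runs into the helix at nt 1296. Most nts between these paired mainly with the probed nts. At nt 1287 the sum was 1.18, with 0.287 within the stretch, and at nt 1291 it was 1.02, with 0.133 within. Nts 1290 (0.291 of 0.291) and 1295 (0.453 of 0.813) paired mainly within the stretch. Sums as large as that of nt 1287 are not exact shares and raise the mean of this window. Both windows are shown, with capitals for nts whose summed probability with all partners is above 0.5.
window 1204: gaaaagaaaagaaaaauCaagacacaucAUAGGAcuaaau
window 1281: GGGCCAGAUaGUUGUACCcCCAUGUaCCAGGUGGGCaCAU

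The same sequence was folded without restraints with ViennaRNA to see which of the helices returned. With the whole RNA folded, the 93 helix pairs had a median probability of 0.485 against 0.715 in the deposited model, and 42 of them were above 0.5. By helix, 9 of the 16 had a median above 0.5. The hairpin at nt 1469 had all its 6 pairs above 0.95 (median 0.998), and these were the only pairs of the stretch above 0.95 in either model. The closing helix at nt 1526 had a median of 0.675 and the hairpin at nt 1232 one of 0.703. The helices at nts 1568, 1582 and 1590 were higher without restraints, with medians of 0.907, 0.924 and 0.808, and their competitors at nts 1569, 1583 and 1618 had medians of 0.0559, 0.0477 and 0.0108.

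Other helices were less probable in that fold. The long helix at nt 1450 had a median of 0.0792 against 0.751, and the hairpin at nt 1687 one of 0.0490 against 0.677. The helix at nt 1296 had 0.393 against 0.754. None of these nts carried restraints in the deposited model. The programs, their settings and the restraints on the probed nts all differ between the models, and which of them moves with these helices was not tested.

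With the 3′ stretch folded alone, so that the probed nts could not compete, the 93 pairs had a median of 0.768 and 12 of the 16 helices had a median above 0.5. The helix at nt 1296 was at 0.842 and the hairpin at nt 1232 at 0.960. The helix at nt 1450 was at 0.163, the hairpin at nt 1687 at 0.0316 and the helix at nt 1157 at 0.00101. The hairpin at nt 1469 was at 0.996. Across these 3 models it was the helix whose median moved least, and those at nts 1157, 1274, 1450 and 1687 had medians above 0.5 in the deposited model only.

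**Figure D4:**
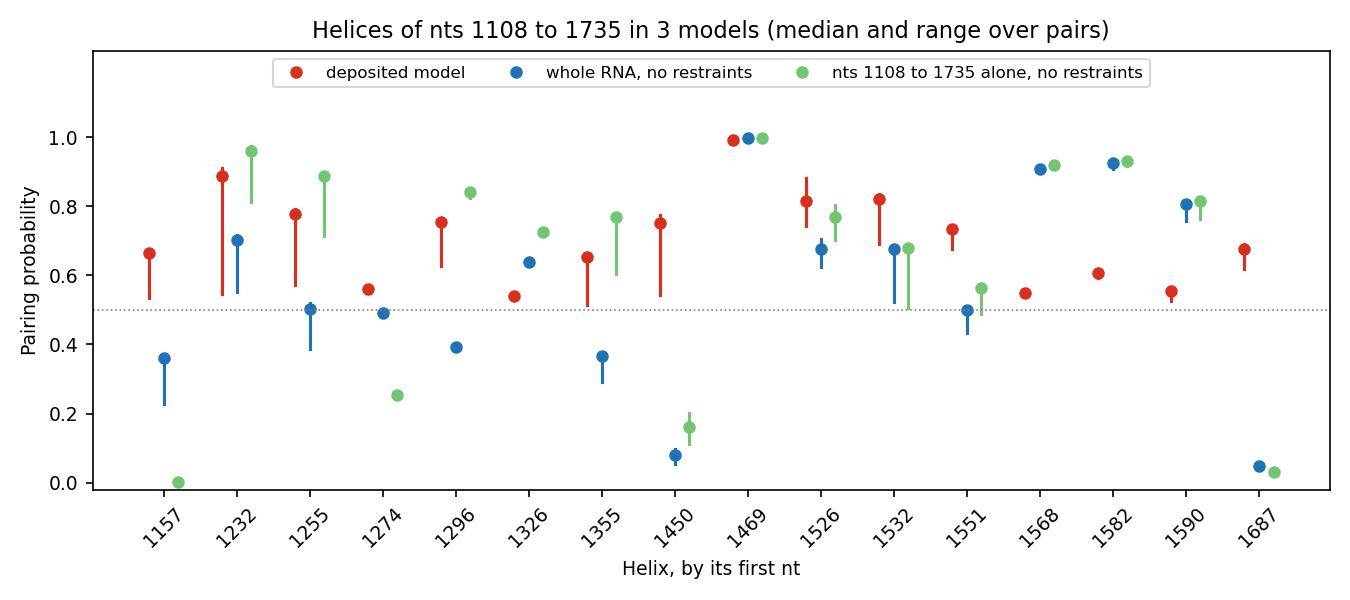
Pairing probability (vertical axis) of the 16 helices, named by their first nt (horizontal axis), in the deposited model (red), in the whole RNA folded without restraints (blue) and in the 3′ stretch folded alone (green); dots are medians over the pairs of a helix and lines run from the lowest to the highest pair. The hairpin at nt 1469 stays near 1 in each model, and the helices at nts 1157, 1274, 1450 and 1687 have medians above 0.5 in the deposited model only.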

How the data were processed

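RNA from LNCaP cells was read in 2 libraries, 5NIA and DMSO, of which the authors made 1 SHAPE profile with ShapeMapper2 and 1 structure model with SuperFold. Versions and settings are not given in the sources used here. The values the authors deposited are the negative log10 of each modeled pairing probability. Probabilities were recomputed from them, and unlisted pairs were taken as 0. The unprobed 3′ stretch is nts 1108 to 1735, the probed part nts 677 to 1107 and the unprobed 5′ part nts 1 to 676. There are no read counts, so depth is unknown and no interval can be given. The numbering was placed on transcript DRAIC-244 of GENCODE release 44, starting at its nt 31, where all 3469 pairs were Watson–Crick or G–U pairs (2900 in the next best placement) and the sequence had 0 mismatches to GRCh38.

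The pairs were set by position, and the definitions and thresholds were chosen with earlier results of these data known. The text names all helices above 0.5, the highest and lowest pairs, those nearest to 0.5 and those nearest to nt 1108. Windows, competing runs and domains were added after the values were seen. A sequence search is not reported here. ViennaRNA 2.7.2 gave the folds without restraints (partition function, 37 °C, partners up to 600 nts apart, probabilities of 0.001 or more), of the whole RNA, of the 3′ stretch, of exon 5 from nt 1035 and of nts 900 to 1705. Other alternatives changed the threshold, the helix definition, the region, the summary or the weighting. A probability was taken as moved at 0.05 or more, a percentage at 5 points or more, and a count or a distance beyond 1.5 times. As first set, the rule for counts was 1.5 times or more. The 6 pairs above 0.95 became 9 above 0.90 and 4 above 0.99, each at 1.5 times. Both were counted as unmoved and would have moved under the rule as first set. On 200 simulated models the helix finder returned 993 of 993 planted helices and 0 false ones. All planted pairs were above 0.5, and all other pairs were below it and on other nts. No planted helix enclosed another. That run therefore checked only that the code follows the definition, not how it performs on a real model. Scripts ran under Python 3.11.15, with figures by matplotlib 3.10.9.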

Additional observations from a re-analysis of the deposited data

How the results depend on the processing

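No paired analysis was possible because the deposited list is a single model without columns per library. For 11 results there were 43 alternative values, of which 26 stayed within the margins and 17 moved. The folds of exon 5 alone and of the reporter fragment were added after seeing the data. The count of 97 pairs above 0.5 became 37 above 0.75, 17 above 0.80 and 6 above 0.95, and the count of 16 helices became 4 above 0.80, as follows from stricter thresholds. The 6 pairs above 0.95 became 22 with the stretch folded alone. The median of the helix pairs, 0.715, was 0.485 for the whole RNA without restraints, 0.768 for the stretch alone and 0.639 for the reporter fragment that stops 30 nts before the end. That fragment lacks nts 1707 to 1709, so the pairs 1687-1709, 1688-1708 and 1689-1707 could not form in it and entered its median as 0. The percentage of nts above 0.5, 35.5%, was 27.2% without restraints, 45.2% for the stretch alone and 52.7% by summed probability. The percentage above 0.95, 1.91%, was 7.01% for the stretch alone. Nts with a summed probability below 0.10 made up 17.5%, against 12.3% below 0.05. G-C pairs were 47.5% of all pairs weighted by probability, against 54.6% of those above 0.5. The median distance of 17 nts was 32 without restraints, 41 for the stretch alone and 46 over all pairs. Apart from the thresholds, the cause was not tested. The median entropy, 0.260, was 0.309 for the whole RNA without restraints, only just inside the margin of 0.05 set for probabilities. No entropy was taken for the stretch folded alone. The share of pairing kept within the stretch did not move under the alternatives tried, none of which allowed partners more than 600 nts apart.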

Other observations

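The folds without restraints contained helices that the deposited model lists at low probability. With the whole RNA folded, nts 1411 to 1419 and 1673 to 1680 formed 8 pairs at a median of 0.553, against 0.0666 in the deposited model. They use nts of the helices at nts 1296 and 1450. Next to them, nts 1404 to 1409 and 1685 to 1690 formed 6 pairs at 0.539 against 0.0564. These use nts of the hairpin at nt 1687 and of the helices at nts 1296 and 1450. Nts 1387 to 1393 and 1698 to 1704 formed 5 pairs at 0.513 against 0.0367, also on nts of the hairpin at nt 1687. With the 3′ stretch folded alone, nts 1109 to 1121 and 1154 to 1166 formed 10 pairs at a median of 0.9896 against 0.0350 in the deposited model, where 90.4% of the pairing of the first 25 nts is with the probed nts. In the same fold nts 1169 to 1177 and 1727 to 1734 formed 7 pairs at 0.993 against 0.0334. The hairpin at nt 1469 was longer in both folds, with 11 pairs from nts 1461 to 1474 to nts 1483 to 1494 at a median of 0.993 in each, of which 6 were above 0.5 in the deposited model. Its added pairs use nts of the 5′ strand of the helix at nt 1450.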
